A study of Mus musculus with 6 samples.

Results

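Chemokine, interferon and antigen presentation genes were examined in isolated pancreatic islets of Vhlh knockout and control mice. The list named 39 mouse genes. Probe sets annotated to exactly 1 symbol stood for the genes, and where a gene had several, the one of highest mean log2 signal over the 6 arrays was taken. This rule found 37 of the 39 genes, among 18193 genes in all. Isg15 had a probe set annotated to more than 1 symbol, and Ifi44 was not analysed here. Testing required a signal above the median of the array in 3 or more of the 6 samples, which 28 of the 37 genes and 11703 of all genes met. Because this filter can be passed through 1 group alone, counts over the 28 genes describe the brighter part of the list and not the whole of it.

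Islets are clusters of endocrine cells in the pancreas, most of them insulin-secreting beta cells. Of the 3 VhlhKO samples, number 01 came from an animal recorded as male at 26 weeks, 02 as female at 20 weeks and 03 as male at 18 weeks, and the 3 control samples carry the same numbers, ages and recorded sexes. The labels give 1 model for all 6 samples, Vhlh(fl/fl) mice with the RIP2-Cre transgene, and mark each sample as VhlhKO or control; which of these alleles the controls carry is not given in the sources used here, nor is the strain. The rat insulin promoter of RIP2-Cre is active in beta cells and in some neurons of the brain. By that design Vhlh should stay intact in the alpha, delta, endothelial, stromal and immune cells of the same islets, which was not tested here. The design text speaks of 3 islet batches per genotype, and each p-value therefore reflects how far batches of 1 array each lay apart.

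Vhlh, which the annotation calls Vhl, encodes a ubiquitin ligase subunit that targets the hypoxia-inducible factors (HIF) for breakdown. The listed genes belong to pathways with other main switches. The transcription factor NF-kB, released when its inhibitors are degraded, induces cytokines, neutrophil-attracting chemokines and adhesion molecules. Interferons act through STAT and IRF factors to induce antiviral effectors and the machinery that loads peptides onto class I molecules. In islets these genes are known for their part in the insulitis of autoimmune diabetes, where stressed beta cells display more class I molecules and release chemokines. Cxcl12 is also known as a HIF target.

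The labels were checked first. Vhl had 344, 358 and 467 signal units in VhlhKO islets, against 457, 639 and 839 in control islets, so its knockout level was 61.7% of control, a log2 difference of -0.70 (SE 0.32) that did not pass limma's test (adjusted p 0.99988). Whether its probes lie in the deleted part was not analysed here. The sex-linked transcripts went against 1 recorded sex in each genotype. Xist, the RNA that silences the second X chromosome of females, had 187, 13783 and 13694 signal units in VhlhKO 01 to 03, against 163, 11319 and 16381 in control 01 to 03. The Y-linked gene Eif2s3y had 1801, 12.3 and 21.5 units in VhlhKO islets, against 1646, 9.92 and 2.77 in control islets. The samples labelled 03, recorded as male, thus had the Xist and Eif2s3y signals of the female samples 02, and only the samples labelled 01 had the male ones. The pancreatic enzyme signal also set number 03 apart. The summed signal of 9 acinar markers was 421523, 508803 and 11743 units in VhlhKO 01 to 03, against 371363, 407670 and 129303 in control 01 to 03.

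Promoters of the genes on which the results turn are shown as 300-base windows, from 250 bases before to 50 after the start of the gene, from RefSeq on GRCm38.p6. Windows were at hand for 30 of the 39 genes. Both strands were searched for the core of the interferon-stimulated response element, for a pair of NF-kB motifs, and for the hypoxia response element core ACGTG. Cxcl1 and Cxcl2 lie close together on chromosome 5, and both hold the same NF-kB motif, 71 and 97 bases before the start, marked in capitals.

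Cxcl1 chr5:90890995-90891294 (+ strand): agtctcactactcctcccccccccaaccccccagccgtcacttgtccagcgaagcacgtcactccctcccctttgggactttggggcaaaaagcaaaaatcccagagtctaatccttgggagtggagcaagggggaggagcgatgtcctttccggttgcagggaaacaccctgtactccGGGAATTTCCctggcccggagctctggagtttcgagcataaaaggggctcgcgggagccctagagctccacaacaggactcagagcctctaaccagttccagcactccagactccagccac
Cxcl2 chr5:90903649-90903948 (+ strand): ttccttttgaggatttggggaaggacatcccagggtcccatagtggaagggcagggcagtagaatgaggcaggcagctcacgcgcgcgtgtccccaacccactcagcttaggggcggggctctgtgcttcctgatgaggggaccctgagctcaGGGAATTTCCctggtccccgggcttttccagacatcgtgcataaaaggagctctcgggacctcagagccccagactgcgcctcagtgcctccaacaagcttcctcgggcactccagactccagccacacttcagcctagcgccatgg

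The 3 Ifit genes lie together on chromosome 19. Ifit1 holds matches to the response element core 104 and 85 bases before its start, and Ifit3 156 and 122 bases before, all on the minus strand and marked in capitals. Neither of the Ifit2 windows holds the core or either of the NF-kB motifs searched, so both are in lower case throughout.

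Ifit1 chr19:34640639-34640938 (+ strand): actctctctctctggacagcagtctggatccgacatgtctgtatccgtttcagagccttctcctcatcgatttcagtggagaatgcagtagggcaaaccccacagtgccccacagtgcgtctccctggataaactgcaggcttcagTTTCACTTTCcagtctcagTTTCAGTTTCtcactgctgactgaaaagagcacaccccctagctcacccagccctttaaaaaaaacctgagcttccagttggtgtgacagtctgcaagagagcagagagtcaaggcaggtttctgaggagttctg
Ifit3 chr19:34583279-34583578 (+ strand): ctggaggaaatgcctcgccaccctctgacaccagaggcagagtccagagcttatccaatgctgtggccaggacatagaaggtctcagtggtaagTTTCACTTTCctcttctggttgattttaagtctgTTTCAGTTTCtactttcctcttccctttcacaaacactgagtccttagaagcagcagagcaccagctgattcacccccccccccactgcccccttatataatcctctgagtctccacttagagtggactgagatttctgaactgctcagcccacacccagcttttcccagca
Ifit2 chr19:34550444-34550743 (+ strand): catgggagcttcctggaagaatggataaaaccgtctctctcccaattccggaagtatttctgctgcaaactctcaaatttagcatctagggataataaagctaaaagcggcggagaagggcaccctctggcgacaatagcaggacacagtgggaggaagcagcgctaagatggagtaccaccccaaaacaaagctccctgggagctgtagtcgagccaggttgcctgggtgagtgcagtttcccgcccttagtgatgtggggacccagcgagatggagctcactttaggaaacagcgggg
Ifit2 chr19:34550838-34551137 (+ strand): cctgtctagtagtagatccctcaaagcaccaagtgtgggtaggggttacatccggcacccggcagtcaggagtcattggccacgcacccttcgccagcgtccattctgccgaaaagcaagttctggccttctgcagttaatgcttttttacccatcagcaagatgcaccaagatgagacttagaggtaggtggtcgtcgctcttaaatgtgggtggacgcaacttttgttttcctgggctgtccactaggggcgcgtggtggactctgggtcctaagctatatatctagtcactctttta

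In all, the response element core was in the windows of 6 of the 30 genes, namely Cxcl10, Stat2, Isg15, Ifit1, Ifit3 and B2m. By window, 17.1% of the listed genes' 35 windows held it, and 3.44% of all 32851 windows. The NF-kB motif of Cxcl1 and Cxcl2 was also in the window of Nfkbia, 8.57% of the listed genes' windows against 0.0883% of all, and the other NF-kB motif was in that of B2m, 2.86% against 0.155%. In the B2m window the response element core and the NF-kB motif lay 139 and 126 bases before the start and did not overlap. ACGTG was in the windows of Cxcl1, Ptgs2 and Tnfaip3, 11.4% of the listed genes' windows against 19.6% of all. A match describes the letters in these windows and does not show that a factor binds there. Nor does a missing match show that a gene lacks the element, since only these letters and windows were searched.

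None of the 28 tested genes passed the threshold, an adjusted p under 0.05 from limma with Benjamini-Hochberg adjustment over all 11703 genes, and each had an adjusted p of 0.99988. Over all genes 2 passed, a share of 0.0171%. At an unadjusted p under 0.05 there was 1 listed gene, Ifit2, which was higher, and 300 of all genes, a share of 2.56%, or 2.03% counting those higher in VhlhKO islets. Ifit2 was also the 1 tested gene whose VhlhKO signals all lay above the control signals, against 4.02% of all genes, and no tested gene had all VhlhKO signals below, against 2.69%. Of the 28 log2 differences 22 were positive and 6 negative, with a median of 0.25, where 50.8% of all genes were positive and their median was 0.0050. The list was chosen with earlier results of these data known, so these counts describe it and test nothing. Positive values were spread unevenly over the same-numbered pairs. Of 28 genes 13 were higher in VhlhKO 01 than in control 01, 20 in the pair numbered 02 and 23 in the pair numbered 03. The median pair difference was -0.03, 0.33 and 0.31 in that order, against 0.015, 0.014 and 0.013 over all genes. In 3 of 3 pairs 4 listed genes were higher (Nfkbia, Tnfaip3, Ifit2 and H2-Ab1), against 13.8% of all genes, and 0 were lower, against 10.9%.

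**Figure D1:**
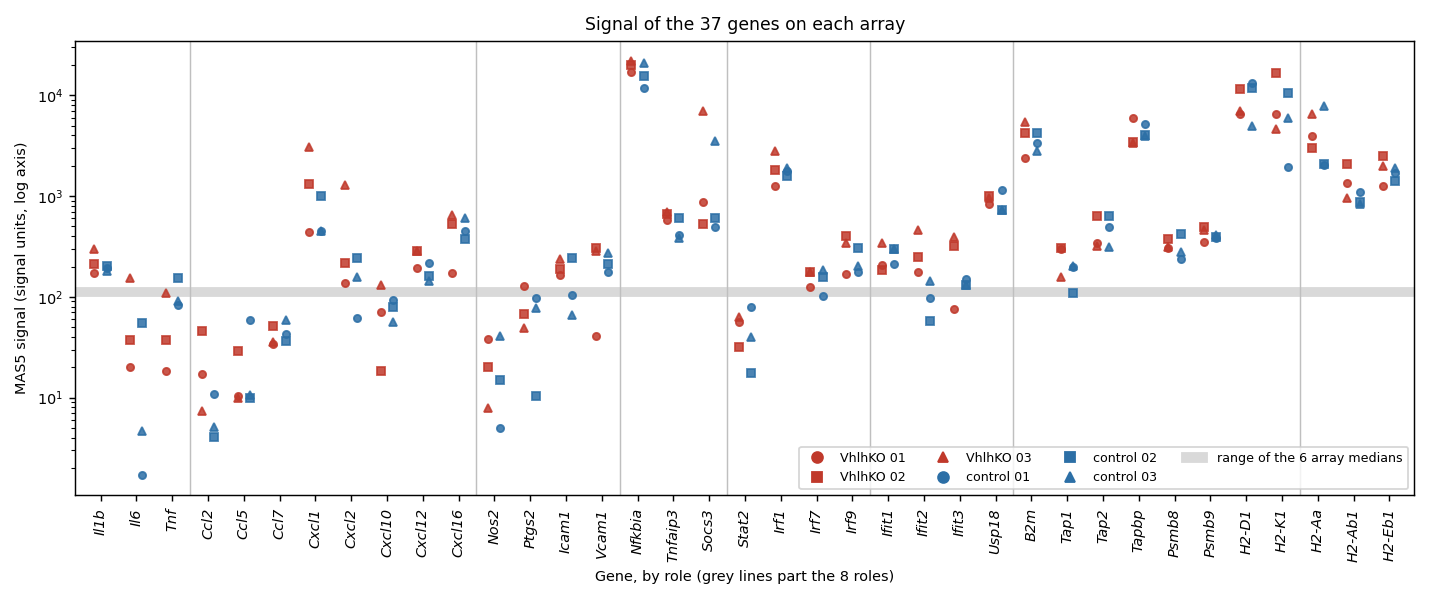
MAS5 signal (log axis) of the 37 genes on the 3 VhlhKO arrays (red, left of each gene) and the 3 control arrays (blue, right), with the array number as the symbol and the range of the 6 array medians as a grey band. Ifit2 is the 1 tested gene whose red points all lie above its blue points, and the signals of Cxcl1, Cxcl2 and Socs3 are highest on VhlhKO 03.

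**Figure D2:**
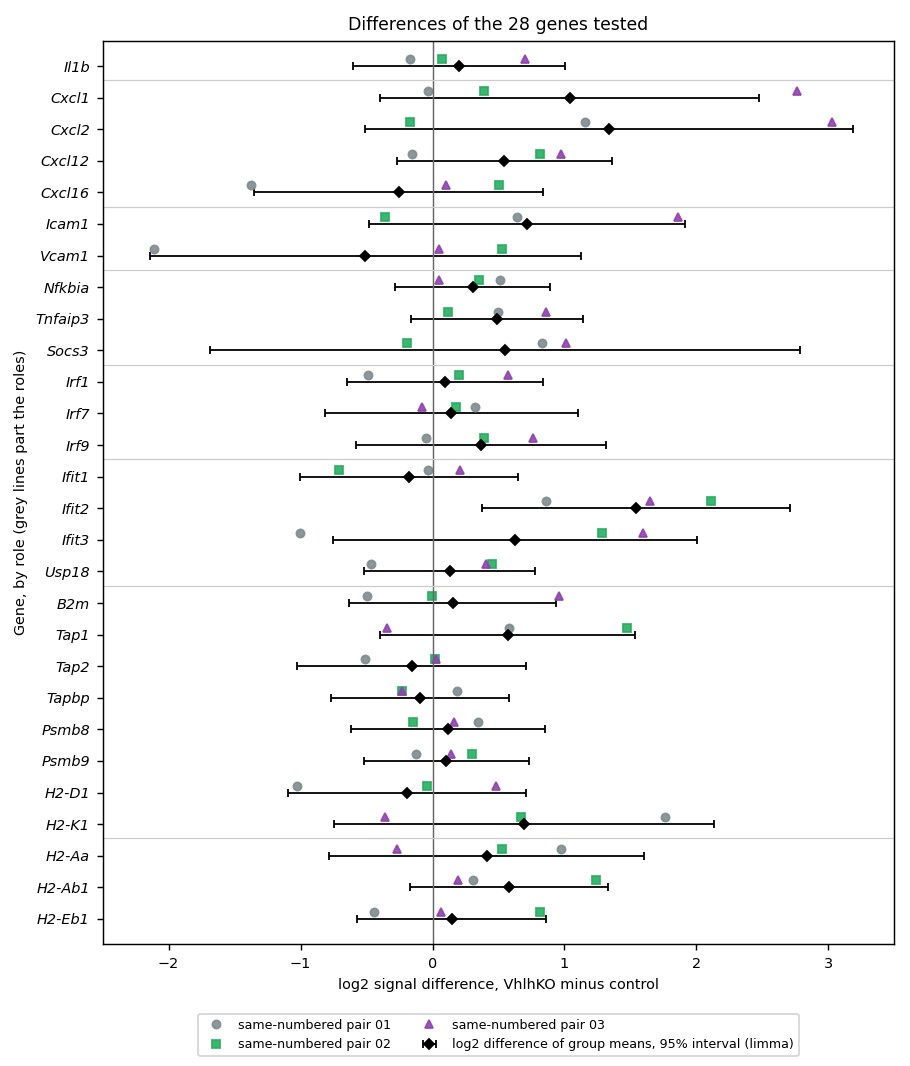
Log2 difference, VhlhKO minus control, of the 28 tested genes with its 95% interval from limma (black), and the difference within each same-numbered pair (coloured symbols). The interval of Ifit2, from 0.38 to 2.71, is the 1 that does not reach 0.

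Of the classical cytokines Il1b was bright enough to test, and Il6 and Tnf were dim in both genotypes. Il1b, which encodes interleukin-1 beta, had 171, 213 and 296 units in VhlhKO islets, against 193, 203 and 182 in control islets. The groups overlapped, and the log2 difference was 0.20 (SE 0.36, 95% interval -0.60 to 1.00). Il6, an inducer of the acute phase response, was too dim to test, with 20.2, 37.7 and 155 units in VhlhKO islets and 1.72, 54.8 and 4.73 in control islets. Tnf, the founding member of its cytokine family, was likewise not tested, with 18.5, 37.5 and 110 units in VhlhKO islets and 83.7, 153 and 90.5 in control islets. Il6 exceeded its array's median on VhlhKO 03 alone, and Tnf on VhlhKO 03 and control 02.

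Among the chemokines, the neutrophil attractants Cxcl1 and Cxcl2 were highest on VhlhKO 03. Cxcl1 had 443, 1301 and 3041 units in VhlhKO islets, against 454, 994 and 448 in control islets. The pairs numbered 01 and 02 differed by -0.03 and 0.39 on the log2 scale and the pair numbered 03 by 2.76. The difference of the group means was 1.04 (SE 0.64, 95% interval -0.40 to 2.48), and 0.37 without VhlhKO 03. Cxcl2 had 138, 215 and 1286 units in VhlhKO islets, against 62.1, 242 and 158 in control islets. Its pairs differed by 1.16, -0.17 and 3.03, and its mean difference of 1.34 (SE 0.82, 95% interval -0.51 to 3.18) was 0.37 without VhlhKO 03. Without VhlhKO 01 the differences of Cxcl1 and Cxcl2 were 1.76 and 1.98. Both other Cxcl1 probe sets bright enough to test had their highest signal on VhlhKO 03 too, with pair differences of 1.92 and 3.28 at number 03. One of them had no overlap between the groups, with 370, 364 and 742 units in VhlhKO islets and 301, 343 and 196 in control islets.

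The stromal chemokine Cxcl12, which retains leukocytes and progenitors through the receptor Cxcr4, had 194, 283 and 285 units in VhlhKO islets, against 216, 161 and 145 in control islets. VhlhKO 01 lay below control 01 and the other two VhlhKO samples above every control, a log2 difference of 0.54 (SE 0.36). A second Cxcl12 probe set had 183, 200 and 256 units in VhlhKO islets and 58.8, 147 and 117 in control islets. Its groups did not overlap, and control 01 was below the median of its array. It differed by 1.07 (SE 0.46) with an unadjusted limma p of 0.0452 and an adjusted p of 0.999955 over all probe sets. Cxcl16, a membrane-bound chemokine that binds Cxcr6, ran from 174 to 645 units in VhlhKO islets and from 374 to 601 in control islets, with a log2 difference of -0.26 (SE 0.48) that was 0.33 without VhlhKO 01. The monocyte attractants Ccl2 and Ccl7, the T cell attractant Ccl5 and the interferon-induced Cxcl10 were too dim to test. Ccl2, Ccl5 and Ccl7 lay below the array's median on all 6 arrays. Cxcl10 had 70.2, 18.4 and 130 units in VhlhKO islets, against 92.2, 79.6 and 56.2 in control islets.

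The brightest probe sets of the enzymes and adhesion molecules induced by inflammatory signals overlapped between the genotypes. Nos2, the inducible nitric oxide synthase, was below the median on all 6 arrays, and Ptgs2, the inducible cyclooxygenase, exceeded it on VhlhKO 01 alone. Icam1, a ligand of leukocyte integrins, had 164, 190 and 238 units in VhlhKO islets, against 105, 244 and 65.8 in control islets. Control 01 and 03 were below the medians of their arrays, and control 02 exceeded all VhlhKO samples. The log2 difference was 0.71 (SE 0.53). It was 1.23 without control 02, 0.28 without control 03 and 0.14 without both samples numbered 03. Vcam1, which binds leukocytes at activated endothelium, depended on the probe set. Its brightest one had 40.8, 303 and 282 units in VhlhKO islets and 176, 210 and 272 in control islets, a difference of -0.51 (SE 0.72) that was 0.44 without VhlhKO 01. A second one had 165, 284 and 555 units in VhlhKO islets and 88.9, 181 and 64.5 in control islets, and differed by 1.55 (SE 0.56, unadjusted limma p 0.0207, adjusted p 0.999955). Its groups overlapped, and its pairs differed by 0.89, 0.65 and 3.11, the last of these at number 03. Control 01 and 03 were below the medians of their arrays for this probe set, where a ratio is least precise. The third was too dim to test, with 25.2, 37.1 and 39.8 units in VhlhKO islets and 63.2, 83.4 and 111 in control islets. The Vcam1 probe sets thus gave opposite directions, and which of them follows the transcript was not tested.

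The feedback inhibitors of these pathways had positive differences, of which none passed. Nfkbia, which holds NF-kB in the cytoplasm, had 16834, 19988 and 21640 units in VhlhKO islets, against 11794, 15668 and 20900 in control islets. It was higher in 3 of 3 pairs, by 0.51, 0.35 and 0.05, with a mean difference of 0.30 (SE 0.26) that was 0.10 without control 01 and 0.51 without control 03. All 4 of its other probe sets had positive differences, between 0.09 and 0.38, but not all of these were higher in every pair. The dimmest differed by -0.47 at number 03, and the next dimmest by -0.03, 0.48 and -0.19 in pairs 01 to 03. Tnfaip3, the ubiquitin-editing enzyme A20 that ends NF-kB signalling, had 581, 660 and 699 units in VhlhKO islets, against 411, 608 and 385 in control islets. It too was higher in 3 of 3 pairs, with a mean difference of 0.49 (SE 0.29, 95% interval -0.16 to 1.14), although control 02 exceeded VhlhKO 01. Socs3, which blocks STAT signalling from the interleukin-6 receptor, was highest on number 03 of both genotypes. It had 878, 524 and 7011 units in VhlhKO islets, against 493, 599 and 3481 in control islets, so that both samples numbered 03 were far above the other 4. Its difference of 0.55 (SE 0.99) was -0.57 without VhlhKO 03 and 1.44 without control 03.

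The factors that carry the interferon signal to the genome overlapped between the genotypes. Irf9, the DNA-binding subunit of the complex formed after type I interferon, had 170, 400 and 345 units in VhlhKO islets, against 176, 306 and 204 in control islets, a log2 difference of 0.37 (SE 0.42) that ranged from 0.12 without VhlhKO 02 to 0.74 without VhlhKO 01. Irf7, which amplifies the type I response, had 127, 178 and 174 units in VhlhKO islets, against 101, 157 and 184 in control islets, a difference of 0.14 (SE 0.42). Irf1, a main factor of the interferon gamma response, ran from 1265 to 2812 units in VhlhKO islets and from 1598 to 1889 in control islets, a difference of 0.10 (SE 0.33). Stat2, the partner of Irf9 in that complex, was below the median on all 6 arrays.

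Among the interferon-stimulated effectors Ifit2 had the lowest p. Ifit2 belongs to the Ifit family, whose proteins bind viral RNA and restrain translation. It had 177, 248 and 456 units in VhlhKO islets, against 97.6, 57.3 and 145 in control islets, so the groups did not overlap. The geometric means were 272 units in VhlhKO islets and 93.3 in control islets, a 2.91-fold difference, or 1.54 on the log2 scale (SE 0.52, 95% interval 0.38 to 2.71, unadjusted limma p 0.0150). It was higher in 3 of 3 pairs, by 0.86, 2.11 and 1.65. Control 01 and 02 were below the medians of their arrays, where a ratio is least precise, and with a pseudocount of 50 units the difference was 1.16. Without VhlhKO 03 it was 1.17 and without control 02 it was 1.19, with unadjusted p-values of 0.0756 and 0.0507, and without both samples numbered 03 it was 1.49 (unadjusted p 0.0361). With the replicate number as a block its unadjusted p was 0.00715 and its adjusted p 0.802.

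The neighbouring Ifit genes, whose windows hold the response element core, overlapped between the genotypes. Ifit3 had 75.1, 318 and 395 units in VhlhKO islets, against 151, 131 and 131 in control islets. VhlhKO 01 was the lowest of the 6 samples and VhlhKO 02 and 03 the highest, so the pairs differed by -1.01, 1.29 and 1.60 and the mean by 0.63 (SE 0.61). The Ifit3 difference was 1.37 without VhlhKO 01, 0.17 without VhlhKO 03, 0.33 without VhlhKO 02 and 0.14 without both samples numbered 03. Ifit1 had 205, 184 and 341 units in VhlhKO islets, against 210, 301 and 295 in control islets, a difference of -0.18 (SE 0.37). Usp18, the protease that removes the ubiquitin-like Isg15 protein from its targets, ran from 835 to 996 units in VhlhKO islets and from 730 to 1150 in control islets, with a difference of 0.13 (SE 0.29). The probe set shared by Isg15 and Gm9706 had 13.3, 102 and 135 units in VhlhKO islets and 137, 83.6 and 64.4 in control islets.

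All 8 genes of class I antigen presentation were bright enough to test, 5 of them with positive and 3 with negative differences, and a median of 0.11. Tap1, a subunit of the peptide transporter into the endoplasmic reticulum, had 297, 305 and 158 units in VhlhKO islets, against 199, 110 and 201 in control islets, a log2 difference of 0.57 (SE 0.43). Psmb9, an immunoproteasome subunit, had 354, 488 and 457 units in VhlhKO islets, against 387, 396 and 414 in control islets, a difference of 0.11 (SE 0.28, 95% interval -0.52 to 0.73). Tap1 and Psmb9 are transcribed away from each other on chromosome 17, and their 300-base windows share 275 bases. The other transporter subunit Tap2 differed by -0.16 (SE 0.38), the loading factor Tapbp by -0.09 (SE 0.30) and the immunoproteasome subunit Psmb8 by 0.12 (SE 0.33). B2m, the light chain of every class I molecule, had 2358, 4183 and 5424 units in VhlhKO islets, against 3333, 4187 and 2788 in control islets. Its difference was 0.15 (SE 0.35), and -0.16 (SE 0.36) by its second probe set.

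The class I heavy chains H2-D1 and H2-K1 varied widely between samples of 1 genotype, and in a way that differed from probe set to probe set. The brightest H2-D1 probe set had 6529, 11396 and 6946 units in VhlhKO islets, against 13271, 11712 and 4978 in control islets, a difference of -0.19 (SE 0.40). Beside it, 3 H2-D1 probe sets had a far lower signal on 1 sample of each genotype than on the other samples. The first had 2051, 41.9 and 2764 units in VhlhKO islets, against 7411, 4281 and 3.84 in control islets. Another had 2769, 11.1 and 2921 units in VhlhKO islets, against 7758, 3956 and 8.86 in control islets. The last of them had 3130, 312 and 3400 units in VhlhKO islets, against 8490, 4848 and 15.5 in control islets. These probe sets were low on VhlhKO 02 and control 03 and high on the other 4 samples, and they were highest on control 01. On the same VhlhKO 02 sample the brightest H2-D1 probe set was at its highest among knockouts, so the H2-D1 signals of that sample pointed opposite ways. Their log2 differences of 0.32 (SE 2.66), -0.53 (SE 2.71) and 0.79 (SE 2.07) carry standard errors so large that they set no useful bound on a genotype effect.

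H2-K1 showed a similar split. Its brightest probe set had 6570, 16794 and 4580 units in VhlhKO islets, against 1933, 10524 and 5885 in control islets, with control 01 the lowest. The difference was 0.69 (SE 0.64), and 0.02 without control 01. A second probe set had 4506, 6553 and 4525 units in VhlhKO islets, against 8802, 6384 and 2725 in control islets, with control 01 the highest, and differed by -0.07 (SE 0.42). Classical H2 genes are highly polymorphic between mouse strains. Probe sets of the _x_at kind can bind related transcripts, and all 4 H2-K1 probe sets are of that kind. So are the H2-D1 probe sets whose signals are given above and the brightest ones of H2-Aa and Socs3. The alleles these animals carried were not analysed here, and whether they move with these signals was not tested.

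**Figure D3:**
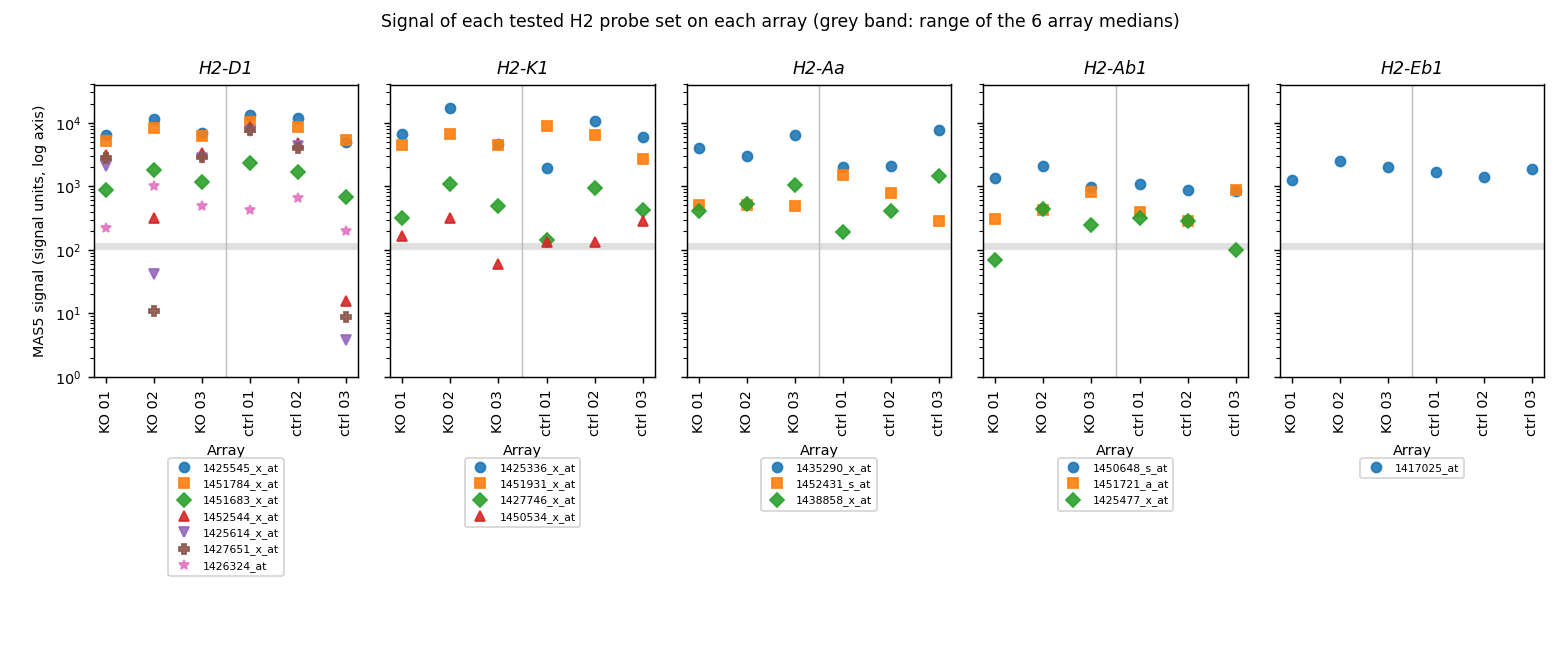
MAS5 signal (log axis) of every H2 probe set bright enough to test, on the VhlhKO samples (left of the grey line in each panel) and the control samples (right). In the H2-D1 panel 3 probe sets fall to between 3.84 and 312 units on VhlhKO 02 and control 03 and stay between 2051 and 8490 on the other 4 samples.

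The class II genes, which present peptides taken up by antigen-presenting cells, had 3 of 3 positive differences, of which none passed. H2-Ab1, a beta chain, had 1355, 2066 and 959 units in VhlhKO islets, against 1097, 873 and 840 in control islets. It was higher in 3 of 3 pairs, by 0.30, 1.24 and 0.19, although control 01 exceeded VhlhKO 03, and the difference was 0.58 (SE 0.33, 95% interval -0.17 to 1.33). Its other probe sets differed by 0.03 (SE 0.49) and -0.08 (SE 0.70). H2-Aa, the matching alpha chain, had 3959, 2990 and 6471 units in VhlhKO islets, against 2017, 2076 and 7801 in control islets, a difference of 0.41 (SE 0.53) that was 0.08 without control 01 and 1.05 without control 03. Its second-brightest probe set was highest on control 01, with 508, 511 and 485 units in VhlhKO islets and 1480, 775 and 285 in control islets, and differed by -0.46 (SE 0.52). H2-Eb1 had 1258, 2474 and 1987 units in VhlhKO islets, against 1710, 1404 and 1903 in control islets, a difference of 0.15 (SE 0.32).

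Taken probe set by probe set, 52 of the 75 probe sets of the listed genes were bright enough to test. None passed after adjustment over 19853 probe sets. At an unadjusted limma p under 0.05 there were 3, namely that of Ifit2 and the second ones of Cxcl12 and Vcam1, against 2.21% of all probe sets. Of the 10 genes with more than 1 tested probe set, Cxcl1, Cxcl12, Nfkbia and Socs3 had a single direction, and B2m, Vcam1 and the H2 genes other than H2-Eb1 did not. The spread between samples of 1 genotype, as the pooled SD of log2 signal, had a median of 0.50 over the 28 genes and 0.43 over all tested genes. It was largest for Socs3, at 1.78, and next for Cxcl2, followed by 1.18 for Vcam1, 1.11 for H2-K1 and 1.09 for Cxcl1, and 0.18 for Psmb9, the lowest of the 28.

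Further genes of the same pathways gave no call either. Of 80 such genes 56 were tested, 31 with positive and 25 with negative differences, a median of 0.05, and 0 passed. At an unadjusted limma p under 0.05 there was 1, Gbp2, against 2.56% of all genes. VhlhKO signals all lay above the control signals for 3 of the 56, Gbp2, Oas2 and Il6st, against 4.02% of all genes. Gbp2, a guanylate-binding protein induced by interferon gamma, had 154, 228 and 376 units in VhlhKO islets, against 74.7, 75.9 and 137 in control islets. Its groups did not overlap, and it differed by 1.36 (SE 0.49, unadjusted p 0.0207, adjusted p 0.99988). The antiviral enzyme gene Oas2 had 181, 240 and 177 units in VhlhKO islets, against 37.8, 103 and 156 in control islets, a difference of 1.22 (SE 0.58) without overlap. For both Gbp2 and Oas2, control 01 and 02 were below the medians of their arrays, where a ratio is least precise. These were the 2 of lowest p among 17 tested interferon-stimulated genes, of which 13 had positive and 4 negative differences, with a median of 0.30. The most negative was Bst2, at -1.24 (SE 0.87). With the replicate block 3 of the 17 had an unadjusted p under 0.05, against 4.99% of all genes.

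In the receptor list, 6 of 10 genes had positive differences with a median of 0.05. Il6st, the signalling chain shared by interleukin-6 family receptors, differed by 0.51 (SE 0.29) without overlap, and the interferon receptor subunit Ifnar2 by 0.35 (SE 0.29). Of 3 tested chemokine receptors, Cxcr3 differed by -0.51 (SE 0.63) and Ackr3, a scavenger of Cxcl12, by 0.24 (SE 0.50). Of 10 tested genes of JAK-STAT and NF-kB signalling 8 were negative, with the kinases Jak1 at -0.42 (SE 0.34) and Jak2 at -0.30 (SE 0.29). The 5 tested sensor genes lay between -0.20 and 0.16, from the adaptor Mavs (SE 0.34) to the RNA receptor Tlr3 (SE 0.27). Of the further class I genes 2 of 7 were positive, the immunoproteasome subunit Psmb10 at 0.41 (SE 0.31) and the proteasome activator Psme1 at 0.33 (SE 0.26). Of the further class II genes 2 of 4 were positive, with H2-Oa at 1.25 (SE 0.98) and the protease Ctss at -0.41 (SE 0.32).

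Markers of the other cells of an islet preparation were read on the same arrays, since whole islets cannot tell fewer cells of a type from less RNA per cell. Of 22 leukocyte markers 13 were tested and 12 had positive differences, where 50.8% of all genes did. The median of these markers was 0.41, and none passed. Their summed signal was 6168 to 15545 units in VhlhKO islets and 6205 to 12078 in control islets, highest on both samples numbered 03, as were the Socs3 signal and that of the brightest H2-Aa probe set, though the second-brightest H2-Aa probe set was lowest on number 03 in each genotype. The 2 tested leukocyte markers of lowest p went opposite ways. C1qa, the 1 with a negative difference, had 507, 538 and 538 units in VhlhKO islets and 907, 502 and 973 in control islets. It differed by -0.53 (SE 0.32), and Lyz2 by 0.45 (SE 0.29). Ptprc, the marker of all leukocytes, had 413, 335 and 666 units in VhlhKO islets and 313, 312 and 424 in control islets. Of the T cell markers, Cd3e, Cd3g and Cd4 lay below the array's median on all 6 arrays, while Cd8a had 63.6, 66.5 and 660 units in VhlhKO islets and at most 191 in control islets, above the median on both samples numbered 03 and control 01. No marker was listed at 0. Endothelial markers had positive differences in 11 of 11 tested genes. Of these 4 were higher without overlap between the groups, against 4.02% of all genes. Their summed signal was 12070 to 16549 units in VhlhKO islets and 9696 to 10359 in control islets, which did not overlap. Kdr was the largest part of each sum, with 7130, 5130 and 4673 units in VhlhKO islets and 3652, 3767 and 3297 in control islets. The separation of the sums therefore leans on Kdr. Tie1, too dim to test, was lower in each same-numbered pair, by -0.09, -0.43 and -0.18. Fibroblast, stellate and pericyte markers were positive in 8 of 9, with sums of 12003, 17860 and 30444 units in VhlhKO 01 to 03 and 9914, 12322 and 9271 in control 01 to 03. Among the VhlhKO samples, number 03 was lowest for Tap1, Tap2, Tapbp and the brightest probe sets of H2-Ab1 and H2-K1. It was the highest of the 6 samples for Cxcl1, Cxcl2, Ifit2 and Irf1. VhlhKO 03 also had the highest leukocyte and stromal sums and the lowest acinar sum of the 6 samples. The part of these cells in the listed genes' signals was not tested.

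**Figure D4:**
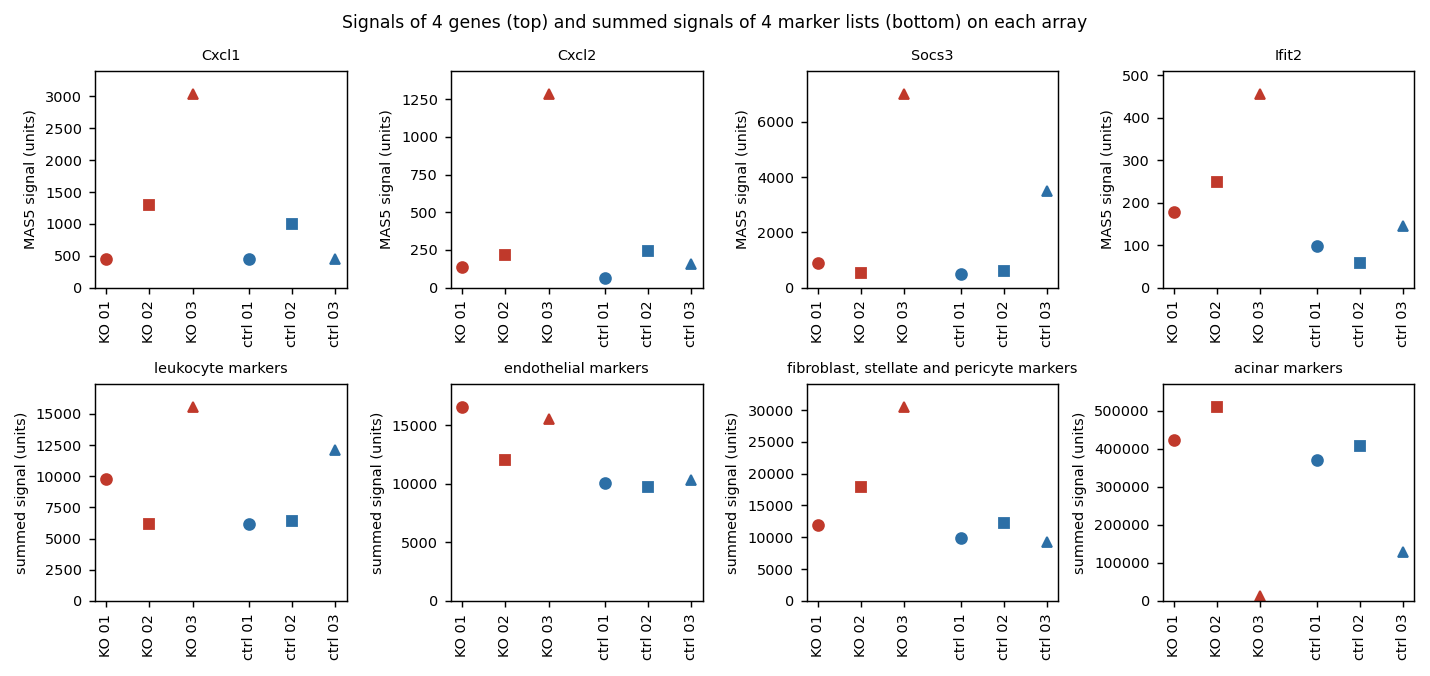
MAS5 signals of Cxcl1, Cxcl2, Socs3 and Ifit2 (top) and summed signals of 4 marker lists (bottom) on each sample, VhlhKO in red left of control in blue, axes from 0. VhlhKO 03 has the highest Cxcl1, Cxcl2, Socs3 and Ifit2 signals, the highest stromal and leukocyte sums and the lowest acinar sum, 11743 units.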

How the data were processed

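RNA of islets was amplified in 2 rounds and hybridized to 1 Affymetrix mouse array per sample, per the labels' protocols. Each deposited value is a linear signal intensity of 1 probe set, and the submitters' processing notes name GCOS 1.4 and MAS5. The 2% trimmed mean was 500.003 on all arrays and medians lay between 101.9 and 122.7 units, so the arrays share 1 scaling. Precision is limited by having 3 arrays per genotype.

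Of 45101 probe sets 64 controls were left out, and 34945 of the rest had exactly 1 symbol. Symbols were matched to RefSeq by Entrez identifier (34741 matched, 0 changed). The deposited intensities were log2-transformed with nothing added. Then limma 3.58.1 under R 4.3.3 (lmFit, then eBayes with an intensity trend, two-sided) was run over the 11703 tested genes, VhlhKO minus control, with no block. The fit was tested on simulated data with errors independent between samples. That simulation does not cover correlation within the same-numbered pairs. Errors are limma's standard errors, and levels with no test are signals.

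All 39 members are named, Ifi44 without values. Signals of every sample are given for members whose groups do not overlap and for the 2 of lowest p in each role, and for others where probe sets or samples disagreed, chosen after their values were seen. Of each further list the 2 genes of lowest p are named. The members and lists were chosen with earlier results of these data known. Deviations from group means correlated at 0.14, 0.41 and 0.42 within the pairs numbered 01, 02 and 03, each above 0.1. By that rule the numbers pair the samples, but VhlhKO 02 with control 01 also reached 0.14, so the rule is weak for number 01. The block was planned as an alternative, and the errors and intervals printed are those without it. With the block the SE was 0.29 against 0.99 for Socs3, 0.28 against 0.53 for H2-Aa and 0.37 against 0.64 for H2-K1. For Cxcl12 it was slightly larger, 0.37 against 0.36. Alternatives were other scalings, filters, probe set rules, weights, the block and samples left out. Some listed genes and promoter windows were not analysed here.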

Additional observations from a re-analysis of the deposited data

How the results depend on the processing

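No listed gene passed the threshold under any of the 17 alternative fits, and the lowest adjusted p of a listed gene in them was 0.802, that of Ifit2 with the replicate block. The median difference of the tested genes, 0.25, ranged from 0.17 to 0.42 over other scalings, filters, probe set rules and weights, and from 0.10 to 0.43 when 1 sample was left out; it was 0.15 without both samples numbered 03 and 0.40 without both numbered 01. With the replicate block the count of all genes that passed stayed at 2 and that of listed genes at an unadjusted p under 0.05 stayed at 1. The block changed no listed gene's call at either threshold, while the count of all genes at an unadjusted p under 0.05 was 584 with it and 300 without. The count of all genes that passed was 4 with a pseudocount of 50, 1 with the stricter filter, 0 without both samples numbered 03, 0 without both numbered 01, 4 with every probe set on its own, and 0 to 4 when 1 sample was left out (0 without VhlhKO 01, VhlhKO 03 or control 01). The count of listed genes at an unadjusted p under 0.05 was 0 with the stricter filter, which drops Ifit2 because its control signals are dim, 2 without both samples numbered 03 (H2-Aa and Ifit2), 3 without both numbered 01 (Cxcl1, Ifit2 and Ifit3), 3 with every probe set on its own, and 1 to 4 when 1 sample was left out. It was 4 without VhlhKO 01 (Cxcl1, Cxcl2, Ifit2 and Ifit3) and 2 without control 03; without VhlhKO 03 the 1 such gene was H2-Ab1, and without control 02 Icam1. The fits by probe set and without both samples numbered 01 were chosen after seeing the data. The cause of these shifts was not tested.

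Of the 28 tested genes 14 kept their direction in each alternative that gave them a value, 13 of them positive, and 14 changed sign in at least 1. The stricter filter gave a value for 22 of the 28 and the mean over probe sets for 26. Without both samples numbered 03 the log2 difference was -0.052 for Il1b, -0.14 for Irf1, -0.0068 for Usp18, -0.25 for B2m, -0.26 for Ackr3 and 0.017 for Mavs. Without both samples numbered 01 it was 0.30 for Cxcl16, 0.29 for Vcam1, 0.022 for Tap2 and 0.22 for H2-D1. Averaging the probe sets of a gene gave 0.050 for Cxcl16, -0.0026 for B2m, 0.24 for H2-D1 and -0.12 for Tlr3. Without _x_at probe sets it was 0.33 for H2-D1 and -0.46 for H2-Aa. When 1 sample was left out, the ranges that crossed 0 were -0.010 to 0.38 for Il1b, -0.62 to 0.33 for Cxcl16, -1.01 to 0.44 for Vcam1, -0.57 to 1.44 for Socs3, -0.20 to 0.38 for Irf1, -0.11 to 0.33 for Irf7, -0.11 to 0.49 for B2m, -0.47 to 0.072 for Tap2, -0.36 to 0.046 for Tapbp, -0.054 to 0.35 for Psmb8, -0.64 to 0.072 for H2-D1 -0.070 to 0.42 for H2-Eb1 and, among the further genes, -0.31 to 0.66 for Ackr3.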
